A study of Mus musculus with 8 samples.

Results

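A set of 10 genes, Krt16, Krt17, Krt6a, Sprr1a, Ivl, Hmga2, Fosl1, Sh2d5, Scg2 and Pxdc1, was followed across 8 RNA sequencing libraries of mouse whole cornea. They are 10 of the 24918 rows of the deposited expression table and 10 of the 14715 rows with a mean log2 value of at least 3, which were tested. The genes were chosen by symbol because they stood high in 2 of the 8 libraries, dexamethasone replicate 1 and vehicle replicate 3, so their levels in these libraries are a description and carry no test. The animals were wild-type C57BL/6J males whose adrenal glands had been removed at 8 weeks of age, which takes away their own glucocorticoids. After about 4 weeks, 4 pools came from eyes given drops with dexamethasone, a synthetic glucocorticoid, for 6 h, and 4 pools from eyes given vehicle drops for the same time. Both groups were adrenalectomized, and no group with intact adrenals was analysed here. Each library was made from a pool of 4 to 6 corneas, and the labels do not say how many mice gave a pool.

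When an epithelium is wounded, keratinocytes at its edge switch to a repair programme. They make the stress keratins 6, 16 and 17, induce subunits of the transcription factor AP-1, move over the defect and later rebuild the surface barrier. Involucrin and the small proline-rich proteins are precursors of the cornified envelope, the cross-linked protein layer under the membrane of stratified epithelial cells, and AP-1 is a known regulator of both. Glucocorticoids are known to slow epithelial wound closure and to repress stress keratins in skin. Of the 10 genes, the keratin genes, Sprr1a, Ivl and Fosl1 belong to this textbook programme. Hmga2 encodes a chromatin protein of embryonic and growing cells, Scg2 encodes secretogranin II of neuroendocrine secretory granules, and Sh2d5 and Pxdc1 encode proteins with an SH2 and a PX domain, so the name wound-response genes fits them less well.

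The genes lie on 8 chromosomes of the mouse build mm9. Krt16 (Entrez 16666; chromosome 11, 100107405 to 100110276) and Krt17 (Entrez 16667; chromosome 11, 100117531 to 100122343) are neighbours in the type I keratin cluster, 7255 bases apart. Krt6a (Entrez 16687; chromosome 15, 101520363 to 101524738) lies in the type II keratin cluster. Sprr1a (Entrez 20753; chromosome 3, 92287877 to 92289816) and Ivl (Entrez 16447; chromosome 3, 92374834 to 92377637) are 85018 bases apart in the epidermal differentiation complex. The others are Hmga2 (Entrez 15364; chromosome 10, 119798331 to 119913525), Fosl1 (Entrez 14283; chromosome 19, 5447703 to 5455945), Sh2d5 (Entrez 230863; chromosome 4, 137806318 to 137817247), Scg2 (Entrez 20254; chromosome 1, 79431244 to 79436665) and Pxdc1 (Entrez 66895; chromosome 13, 34719709 to 34744550, annotated there as 1300014I06Rik).

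The promoters of the 2 cornified envelope genes are shown because both hold the AP-1 letters TGANTCA. The windows, from RefSeq on GRCm38.p6, run from 250 bases before to 50 bases after the start on the gene's own strand, 5′ to 3′, and capitals mark TGANTCA. The Sprr1a window is chr3:92485832-92486131 and the Ivl window is chr3:92573686-92573985, both on the minus strand.
Sprr1a: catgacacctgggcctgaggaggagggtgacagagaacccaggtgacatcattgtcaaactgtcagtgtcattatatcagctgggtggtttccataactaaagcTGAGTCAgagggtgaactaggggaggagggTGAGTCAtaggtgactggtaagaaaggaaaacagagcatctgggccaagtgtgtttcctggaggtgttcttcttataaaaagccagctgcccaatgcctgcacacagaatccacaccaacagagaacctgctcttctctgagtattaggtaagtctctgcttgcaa
Ivl: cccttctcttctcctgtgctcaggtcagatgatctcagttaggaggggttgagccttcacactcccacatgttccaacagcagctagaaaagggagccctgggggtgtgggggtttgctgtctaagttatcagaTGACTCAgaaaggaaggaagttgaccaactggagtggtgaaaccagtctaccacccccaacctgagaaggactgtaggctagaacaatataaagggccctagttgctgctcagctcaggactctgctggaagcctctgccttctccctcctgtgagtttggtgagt
Sprr1a holds TGANTCA starting 146 and 116 bases before the start, and Ivl 116 bases before it. RefSeq windows were matched for 5 members, Sprr1a, Ivl, Hmga2, Scg2 and Pxdc1, and 2 of these held TGANTCA on either strand, against 7.81% of all 32851 windows. The letters AGAACA, which the glucocorticoid receptor recognizes in pairs, were in the same 2 genes, 52 bases before the start of Sprr1a on the opposite strand and 36 bases before that of Ivl, against 19.0% of all windows. The TATA box letters TATAAA were found in Sprr1a, Ivl and Pxdc1, at 43, 29 and 28 bases before the start, against 13.6% of windows. None of these matches overlap. A match of letters is a description and not a shown binding site.

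Levels are given in the authors' log2 unit after normalization. They behave as shrunken values, so that differences understate changes, and a difference of 1 corresponds to a 2-fold difference on this scale. Values of different genes are not given per transcript length and are not compared in level. How deeply each pool was sequenced is unknown, apart from the more than 40000000 reads per sample that the labels state.

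Among the stress keratins, Krt16 differed most between pools. Krt16, the type I partner of keratin 6, stood at 9.33, 7.65, 7.64 and 7.33 in dexamethasone replicates 1 to 4, against 7.43, 8.04, 11.20 and 7.69 in vehicle replicates 1 to 4. Dexamethasone replicate 1 was 3.44-fold above the mean of the other 3 dexamethasone libraries, and vehicle replicate 3 was 11.1-fold above that of the other 3 vehicle libraries. Krt17, another type I keratin of wounded and hair follicle epithelium, stood at 8.84, 8.34, 7.99 and 7.87 after dexamethasone, against 8.24, 7.85, 9.83 and 8.29 after vehicle. Here dexamethasone replicate 1 exceeded its group 1.72-fold, and vehicle replicate 3 exceeded its own 3.25-fold. Krt6a, their type II partner, moved little, with 16.67, 16.56, 16.44 and 16.41 after dexamethasone, against 16.37, 16.45, 16.80 and 16.47 after vehicle. The raised pools exceeded their groups by 1.15-fold (dexamethasone replicate 1) and 1.29-fold (vehicle replicate 3). Its relative Krt6b, not a member, stood at 16.11 in dexamethasone replicate 1 and 16.06 to 16.21 in the other dexamethasone libraries, against 16.32 in vehicle replicate 3 and 16.17 to 16.22 in the other vehicle libraries. For Krt6b, dexamethasone replicate 1 thus lay inside the range of its group, whereas vehicle replicate 3 was the highest of the vehicle pools.

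The cornified envelope genes followed. Sprr1a, a small proline-rich precursor, stood at 9.27, 8.28, 8.22 and 7.85 in dexamethasone replicates 1 to 4, against 8.02, 8.27, 10.35 and 8.26 in vehicle replicates 1 to 4. Ivl, which encodes involucrin, stood at 8.56, 7.28, 7.27 and 7.27 after dexamethasone, against 7.80, 7.74, 9.05 and 7.78 after vehicle. Involucrin had nearly the same excess in both raised libraries, 2.44-fold in dexamethasone replicate 1 and 2.42-fold in vehicle replicate 3, and the other 3 libraries of each group lay close together with a gap between the groups. Sprr1a exceeded its group 2.22-fold in dexamethasone replicate 1, while vehicle replicate 3 had a 4.49-fold excess.

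The regulators were nearly level among the pools that were not raised. Fosl1, which encodes the AP-1 subunit Fra-1, stood at 5.92, 5.32, 5.24 and 5.27 after dexamethasone, against 5.27, 5.33, 6.54 and 5.29 after vehicle. Hmga2, whose product shapes chromatin, stood at 5.58, 4.62, 4.64 and 4.64 after dexamethasone, against 4.70, 4.69, 6.14 and 4.72 after vehicle. Dexamethasone replicate 1 exceeded its group 1.57-fold for Fosl1 and 1.93-fold for Hmga2, and vehicle replicate 3 did so 2.36-fold for Fosl1 and 2.71-fold for Hmga2.

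Sh2d5 showed the widest separation in dexamethasone replicate 1. It stood at 8.90, 6.05, 6.05 and 6.08 in dexamethasone replicates 1 to 4, against 6.28, 6.27, 9.34 and 6.23 in vehicle replicates 1 to 4, which is 7.18-fold above the other dexamethasone libraries and 8.44-fold above the other vehicle libraries. Scg2 stood at 6.71, 5.49, 5.46 and 5.54 after dexamethasone, against 5.46, 5.50, 7.15 and 5.50 after vehicle. Pxdc1 stood at 10.93, 10.43, 10.40 and 10.36 after dexamethasone, against 10.03, 10.05, 11.10 and 10.02 after vehicle. Dexamethasone replicate 1 was the second of the 8 libraries and vehicle replicate 3 the highest in all 10 genes, and in 9 of 10, Ivl being the exception, the deviation from the own group was larger in vehicle replicate 3.

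**Figure D1:**
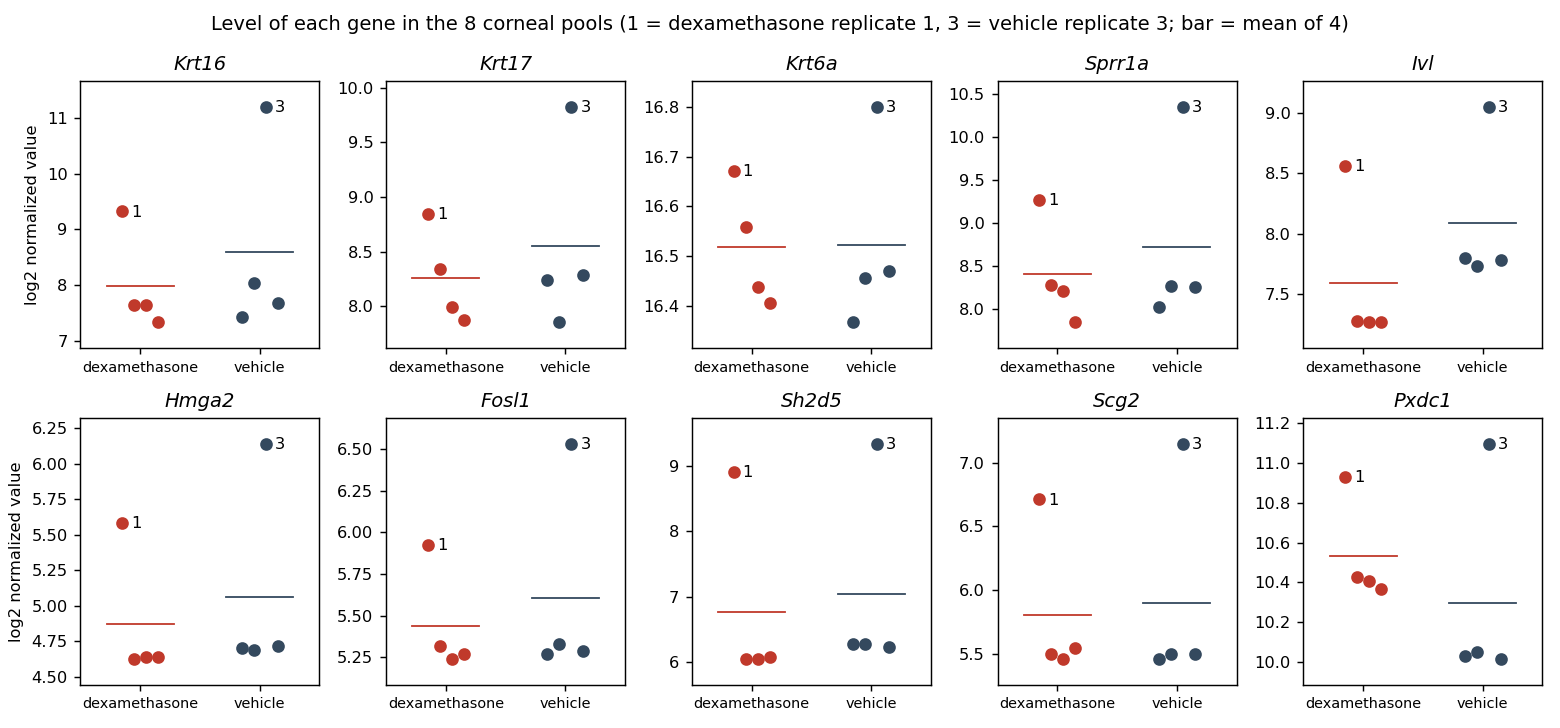
Log2 normalized value (vertical axis, scaled per gene) of each of the 10 genes in the 4 dexamethasone and 4 vehicle libraries; points are pools of corneas and bars are means of 4. Dexamethasone replicate 1 and vehicle replicate 3, numbered 1 and 3, lie above all other pools in every panel, by as little as 0.11 for Krt6a and as much as 2.82 for Sh2d5 in the smaller of the 2 gaps to their own groups.

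Across all tested rows, dexamethasone replicate 1 and vehicle replicate 3 were each the highest of their group in 13.0%, and each the highest by at least 0.5 in 0.183%, or 27 rows, 9 of which are members. Krt6a, at 0.11, was the member below that. The choice of the members fixes these counts. The median row deviated from the other 3 libraries of its group by -0.0010 in dexamethasone replicate 1 and by -0.0054 in vehicle replicate 3, so the values of these libraries were not raised in general. The size of the deviation had a median of 0.044 for dexamethasone replicate 1 and 0.042 to 0.045 in the other dexamethasone libraries, against 0.049 for vehicle replicate 3 and 0.035 to 0.042 in the other vehicle libraries.

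**Figure D2:**
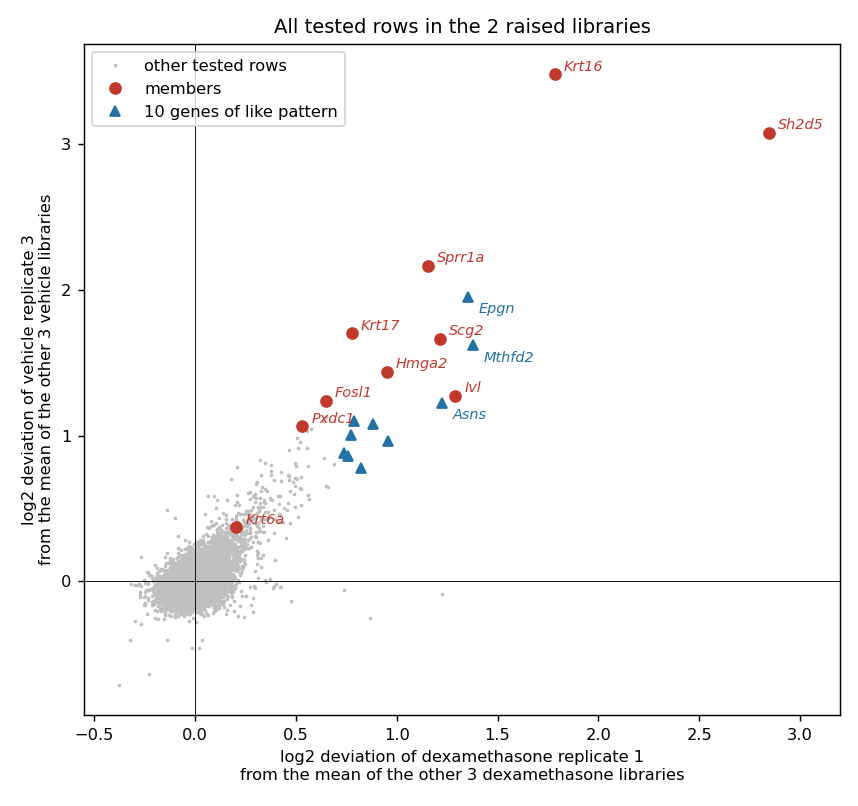
Log2 deviation of dexamethasone replicate 1 from the other 3 dexamethasone libraries (horizontal) and of vehicle replicate 3 from the other 3 vehicle libraries (vertical), for all 14715 tested rows, with the members as circles and the 10 other genes of most similar pattern as triangles. Of the members, 9 stand apart from the bulk of rows at the upper right, and Krt6a lies at the edge of the bulk.

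The 10 other genes with the most similar pattern were ranked by the smaller of 2 excesses, that of dexamethasone replicate 1 over the highest other dexamethasone library and that of vehicle replicate 3 over the highest other vehicle library. They were Epgn, Mthfd2, Asns, Kcnk12, Fscn1, Sept11, Pthlh, Akr1b8, Aldh18a1 and Vegfa, with excesses of 1.29 (Epgn) to 0.61 (Vegfa), followed by Nat8l at 0.61. Epgn encodes epigen, a ligand of the epidermal growth factor receptor. It stood at 8.60, 7.28, 7.31 and 7.14 in dexamethasone replicates 1 to 4, against 7.77, 7.78, 9.69 and 7.66 in vehicle replicates 1 to 4. Mthfd2, Asns and Aldh18a1 encode enzymes of mitochondrial folate, asparagine and proline synthesis, and had excesses of 1.22, 0.97 and 0.68. Pthlh encodes parathyroid hormone-related protein, made by keratinocytes, Fscn1 the actin bundling protein fascin and Vegfa a vascular growth factor. By this order the members ranked 1 (Sh2d5), 2 (Krt16), 4 (Ivl), 6 (Scg2), 7 (Sprr1a), 9 (Hmga2), 18 (Fosl1), 25 (Krt17), 26 (Pxdc1) and 368 (Krt6a) of 14715. The measure covers 8 libraries and rests mainly on 2 of them.

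**Figure D3:**
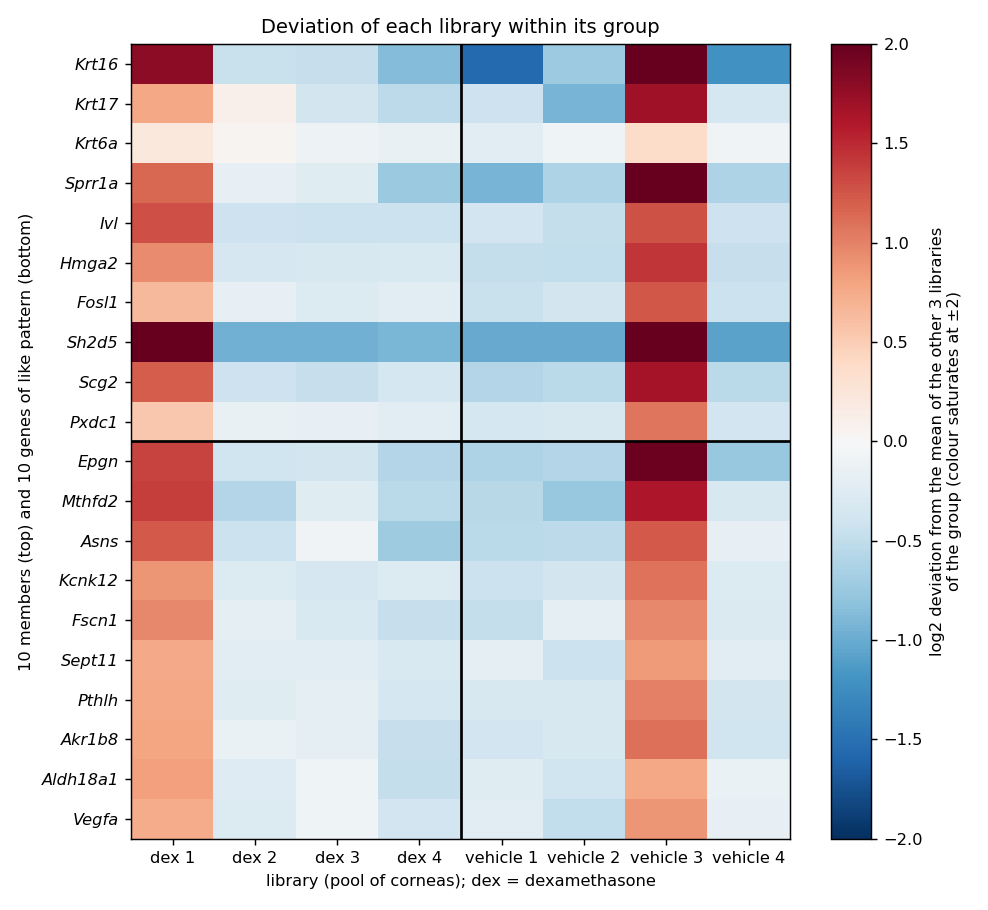
Log2 deviation of each library from the mean of the other 3 libraries of its group (colour, saturating at 2) for the 10 members (upper block) and the 10 genes of most similar pattern (lower block), with dexamethasone libraries left and vehicle libraries right. The columns of dexamethasone replicate 1 and vehicle replicate 3 are red in every row; the pale blue of the other columns follows partly from the raised library in their reference.

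Reads of some members may be shared with other genes. Of the 75-base windows of the longest Krt6a transcript in GENCODE vM1, 40.6% occur in transcripts of other genes and 36.5% in Krt6b. For Krt16, 6.19% occur in Krt14, and for Fosl1 62.3% occur, on the opposite strand, in Ccdc85b, whose single exon overlaps the end of Fosl1 (chromosome 19, 5453163 to 5457549). The other 7 members shared no such window. Ccdc85b stood at 8.42 in dexamethasone replicate 1 and 8.22 to 8.36 in the other dexamethasone libraries, against 8.67 in vehicle replicate 3 and 8.20 to 8.35 in the other vehicle libraries. The strand setting of the counting is not given in the sources used here, so the values of Fosl1 and Ccdc85b cannot be told apart with certainty.

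The members differed in how much they varied in the 6 libraries that were not raised. Krt16, Krt17 and Sprr1a had pooled SDs within groups of 0.25, 0.24 and 0.19, larger than in 99.0%, 99.3% and 99.0% of the 1000 rows nearest in level, and Krt6a had 0.069, larger than in 86.1%. Ivl, Sh2d5 and Hmga2 had 0.024, 0.023 and 0.011, and only 4.7%, 4.9% and 0.9% of such rows varied less. Fosl1 (0.036), Scg2 (0.035) and Pxdc1 (0.026) lay between, with 28.3%, 22.1% and 11.4% varying less. The spread was thus graded, widest in Krt16, Krt17 and Sprr1a and narrowest in Hmga2. For 6 members, Ivl, Hmga2, Fosl1, Sh2d5, Scg2 and Pxdc1, the SD was below that of a Poisson count of the same size, as it was in 9712 of the 14715 tested rows, so these SDs cannot be read as counting error.

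Over these 6 libraries, with values centred within groups, the correlations of the members did not form 1 block. Pairs with the 6 members of smallest spread rest on very small differences, so the absence of a block cannot be concluded for them. Among 45 pairs Pearson's r had a median of -0.071 and ran from -0.81 (Hmga2 with Pxdc1) to 0.82 (Krt6a with Sprr1a), and 22 pairs were above 0. The 6 pairs among Krt16, Krt17, Krt6a and Sprr1a had a median r of 0.56, from -0.27 to 0.82. The correlations describe 6 points that share their libraries and normalization, and single values of r at this size are reached often: 5.31% of all rows had an r with Krt6a at least as high as that of Sprr1a.

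With all 8 libraries, none of the 10 members passed the test of dexamethasone against vehicle (limma, adjusted p below 0.05 over 14715 rows), and none had an unadjusted p below 0.05. In all, 15.1% of tested rows were called, 9.04% higher and 6.03% lower. The groups overlapped in all 10 members, while they did not overlap in 20.7% of tested rows. Krt16 averaged 7.99 ± 0.90 after dexamethasone and 8.59 ± 1.76 after vehicle (SD, n = 4 each), which gave a log2 fold change of -0.60 with a standard error of 0.72. Sh2d5 averaged 6.77 ± 1.42 after dexamethasone and 7.03 ± 1.54 after vehicle (SD, n = 4 each), and the log2 fold change was -0.26 with a standard error of 0.76. The smallest adjusted p was that of Ivl (0.350; log2 fold change -0.50, SE 0.33). The median log2 fold change of the members was -0.23, against -0.0029 over all tested rows. With both raised pools in the fit the standard errors of the members ran from 0.088 (Krt6a) to 0.76 (Sh2d5), and without them from 0.028 (Hmga2) to 0.13 (Krt16).

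Without dexamethasone replicate 1 and vehicle replicate 3, 3 of the 10 members passed, Ivl and Sh2d5 lower and Pxdc1 higher after dexamethasone, where 15.0% of tested rows were called, 5.97% lower and 8.99% higher. Ivl averaged 7.27 ± 0.0053 in the 3 remaining dexamethasone libraries and 7.77 ± 0.034 in the 3 remaining vehicle libraries (SD, n = 3 each), and the difference was -0.50 (SE 0.041; limma, adjusted p = 1.41e-05). Pxdc1 averaged 10.40 ± 0.031 after dexamethasone and 10.03 ± 0.019 after vehicle, and the difference was 0.37 (SE 0.033; limma, adjusted p = 2.55e-05). Sh2d5 averaged 6.06 ± 0.019 after dexamethasone and 6.26 ± 0.026 after vehicle, and the difference was -0.20 (SE 0.037; limma, adjusted p = 0.00376). For these 3 genes and for Hmga2 the groups did not overlap in the 6 libraries, as in 34.1% of tested rows. Hmga2 had 4.63 ± 0.0078 after dexamethasone and 4.70 ± 0.014 after vehicle, a difference of -0.071 (SE 0.028) that did not pass (limma, adjusted p = 0.112). The 3 calls held on leaving out any 1 of the 6 libraries, with adjusted p of at most 0.0190 (Sh2d5 without vehicle replicate 2). The 2 libraries were left out because of the members' own values, which narrows the spread of the rest, so these p-values may be too small. Choosing genes that stand high against their group can also favour genes low in the other pools of that group. The direction of these differences may therefore be affected by the choice as well.

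The stress keratins and Sprr1a showed no call without the raised libraries either. The log2 fold change of Krt16 was -0.18 (SE 0.13; limma, adjusted p = 0.403), that of Krt17 -0.058 (SE 0.12), Krt6a 0.038 (SE 0.048) and Sprr1a -0.067 (SE 0.10). Fosl1 (-0.020, SE 0.035) and Scg2 (0.015, SE 0.036) were also not called. For Krt6a and Scg2 the sign differs from that with all 8 libraries, where they had -0.0040 and -0.098. Between the raised libraries alone, 1 of each group and so without a test, dexamethasone replicate 1 lay below vehicle replicate 3 in all 10 genes, with differences from -1.87 for Krt16 to -0.13 for Krt6a. For Ivl that difference was -0.49, against -0.50 among the other pools. For Krt16 it was -1.87, against -0.18, and for Sprr1a -1.08, against -0.067. For Pxdc1 it was -0.17, opposite in sign to the 0.37 among the other pools. Both raised libraries were picked for their levels, so these differences add no weight to any call.

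**Figure D4:**
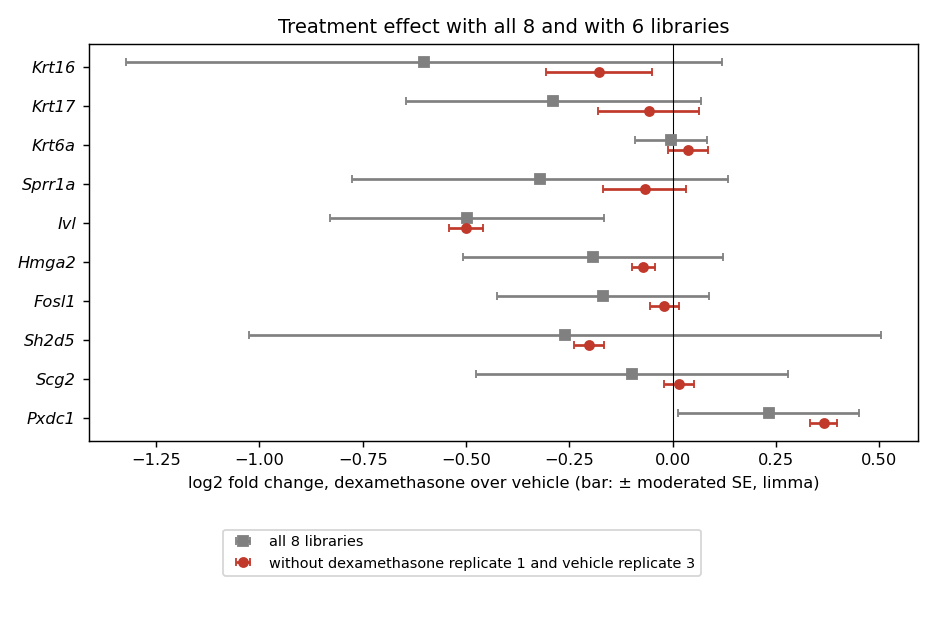
Log2 fold change of dexamethasone over vehicle (horizontal axis, with the moderated standard error as bar) for each member, with all 8 libraries (squares) and without dexamethasone replicate 1 and vehicle replicate 3 (circles). The bars are shorter without these libraries, and the 3 called genes are Ivl at -0.50, Sh2d5 at -0.20 and Pxdc1 at 0.37; the bars of Krt16 (-0.18) and Hmga2 (-0.071), which were not called, also miss 0.

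Other wound-activated epithelial genes shared the pool pattern to a lesser degree. A list of 48 was written from textbook knowledge, with earlier results of these data known. It left out the members but held Epgn, the most similar row besides them, so the shares given are a description. Of the 48, 43 were tested. Dexamethasone replicate 1 and vehicle replicate 3 were each the highest of their group in 25 of them, or 58.1%, against 13.0% of all tested rows, and by at least 0.2 in 9, against 1.11% of rows. After Epgn, the smaller excess was largest for Plat, a plasminogen activator gene (0.49), and Tubb6, a tubulin gene (0.47). The list deviated from the other pools by a median of 0.10 in dexamethasone replicate 1, against 0.19 in vehicle replicate 3. In the treatment test with all 8 libraries 5 of the 43 rose and 4 fell, where 9.04% of all tested rows were called higher and 6.03% lower, and the median of the list was -0.042 on the log2 scale. Without the raised libraries 8 rose and 8 fell, where 8.99% of all tested rows were called higher and 5.97% lower. F3, the tissue factor gene, rose by 0.36 (SE 0.040; limma, adjusted p = 0.000136), Tgfa, which encodes another ligand of the epidermal growth factor receptor, by 0.52 (SE 0.081) and Snai2, which encodes the transcriptional repressor Slug, by 0.24 (SE 0.042). Plau, the urokinase gene, fell by 0.34 (SE 0.055).

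Lists of related genes were set beside the keratins, cornified envelope genes, Fosl1, Scg2 and Hmga2, and read against the 13.0% of all tested rows in which both raised libraries were highest. Among 13 tested cornified envelope genes of a list of 49, the raised libraries were both highest in 2, or 15.4%, Tgm1, the keratinocyte transglutaminase gene (smaller excess 0.27), and Cdsn (0.053). Another 19 genes of that list were listed at 0 and 14 had means below 3, among them Sprr1b, Sprr2d, Sprr2h and Lor. Among 19 other tested keratins this held for 2, or 10.5%, Krt18 (0.40) and Krt14 (0.28). Both shares lie near that of all rows. Krt14, the basal keratin gene next to Krt16, stood at 13.35 in dexamethasone replicate 1 and 12.67 to 13.07 in the other dexamethasone libraries, against 13.97 in vehicle replicate 3 and 12.93 to 13.11 in the other vehicle libraries. Of 11 tested AP-1 and small Maf subunits it held for 3, or 27.3%, Atf3 (0.26), Jun (0.21) and Maff (0.16). It held for none of 5 granin and prohormone processing genes and none of 4 genes of the HMGA and let-7 axis, lists too short to differ visibly from the share of all rows.

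In the treatment test 3 of the 11 AP-1 and small Maf genes were called, all higher after dexamethasone, where 9.04% of all tested rows were called higher and 6.03% lower. Fosl2, which encodes Fra-2, rose by 0.46 (SE 0.042), Fos by 0.32 (SE 0.058) and Mafk by 0.15 (SE 0.030). Without the raised libraries 5 of 11 rose, where 8.99% of all tested rows were called higher. Of the 13 cornified envelope genes 2 rose, Tgm5 (0.12) and Tgm3 (0.067), and none fell. Tgm3, at 3.53 to 3.64 in the 8 libraries, lay close to the filter of 3. Without the raised libraries it was not called (limma, adjusted p = 0.0888), while Tgm1 was called higher (0.13; limma, adjusted p = 0.0200). Of the 19 other keratins Krt78 (0.22) and Krt7 (0.17) rose, and Krt5, the basal keratin gene (-0.23), and Krt10 (-0.19) fell. Cpe (0.16) rose and Pcsk2 (-0.21) fell among the 5 granin and prohormone processing genes, and none of the 4 genes of the HMGA and let-7 axis was called. Pcsk2 passed narrowly (limma, adjusted p = 0.0498), and no gene of its list was called lower with a replicate block, without a filter, with a pseudocount of 8, with quantile normalization or without a variance trend.

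Markers of other tissues were followed beside the members, since in pooled tissue fewer cells of a type and less RNA per cell cannot be told apart. For each list the log2 of the summed linear values is given. The 10 corneal epithelium markers, all tested, summed to 20.82 in dexamethasone replicate 1 and 20.79 to 20.93 in the other dexamethasone libraries, against 20.94 in vehicle replicate 3 and 20.90 to 20.95 in the other vehicle libraries. The most abundant genes dominate such a sum, and both raised libraries were highest in 3 of the 10 markers, or 30.0%, against 13.0% of all tested rows. These were Krt14, where dexamethasone replicate 1 deviated by 0.52 and vehicle replicate 3 by 0.96, Epcam (0.12 and 0.44 in the same libraries) and Cdh1 (0.11 and 0.27), which encode an epithelial adhesion molecule and E-cadherin. Over all 10 markers the median deviation was only -0.033 in dexamethasone replicate 1 and 0.037 in vehicle replicate 3. The conjunctiva and goblet cell markers, 11 of 17 tested, summed to 17.11 in dexamethasone replicate 1 and 17.08 to 17.16 in the other dexamethasone libraries, against 17.10 in vehicle replicate 3 and 17.00 to 17.07 in the other vehicle libraries, so that only vehicle replicate 3 lay above its group. The goblet cell genes Muc5ac, Muc5b, Spdef and Tff1 had means below 3 and Tff3 was listed at 0. Of the 9 epidermis markers 5 were tested, with Krt2 and Lor at means below 3 and Flg2 listed at 0, and their sums were 14.11 in dexamethasone replicate 1 (others 14.10 to 14.22), against 14.25 in vehicle replicate 3 (others 14.26 to 14.33). The leukocyte markers, 10 of 16 tested, summed to 13.28 in dexamethasone replicate 1 (others 13.24 to 13.30), against 13.27 in vehicle replicate 3 (others 13.26 to 13.31).

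The summed level lay above the group in both raised libraries for the wound-activated epithelial genes, the immediate-early genes and the iris, lens and pigment cell markers. The wound-activated epithelial genes summed to 17.81 in dexamethasone replicate 1 (others 17.72 to 17.75), against 17.88 in vehicle replicate 3 (others 17.7 to 17.71). The 13 immediate-early genes, which respond within minutes to injury and handling, summed to 14.43 in dexamethasone replicate 1 (others 14.36 to 14.41), against 14.34 in vehicle replicate 3 (others 14.14 to 14.27), and both libraries were highest in 5 of 13, or 38.5%, among them Atf3 (smaller excess 0.26) and Nr4a1 (0.10). The iris, lens and pigment cell markers, 9 of 10 tested, summed to 11.29 in dexamethasone replicate 1 (others 10.95 to 11.17), against 11.12 in vehicle replicate 3 (others 11.04 to 11.10). Both libraries were highest in 0 of these 9 markers, against 13.0% of all tested rows. The lens crystallin gene Cryba1 stood at 6.39 in dexamethasone replicate 1 and 5.41 to 5.83 in the other dexamethasone libraries, against 5.79 in vehicle replicate 3 and 5.78 to 5.96 in the other vehicle libraries. The sums of stroma and endothelium markers did not lie above the group in both libraries. The 8 stroma markers, all tested, summed to 18.81 in dexamethasone replicate 1 (others 18.71 to 18.74), against 18.71 in vehicle replicate 3 (others 18.71 to 18.77). The 5 corneal endothelium markers, all tested, summed to 15.9 in dexamethasone replicate 1 (others 15.9 to 15.95), against 15.76 in vehicle replicate 3 (others 15.78 to 15.83). The part of these lists in the pattern of the members was not tested.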

How the data were processed

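Whole corneal RNA of 4 dexamethasone and 4 vehicle pools was sequenced as paired-end reads of 75 bp. The submitters' processing notes name mm9 as the build and list Bowtie2, HTSeq and DESeq2. Tool versions, annotation and strand setting were not given in the sources used here. Log2 values normalized by the authors make up the deposited table. The values are not counts, so no counting interval is given. Whether pools of a group share mice is not stated, so p-values measure the spread between these pools.

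Rows with a mean of at least 3 entered limma (version 3.58.1; R version 4.3.3) with a group model and trended empirical Bayes moderation, two-sided, with Benjamini-Hochberg adjustment over 14715 rows. A row was called where that p was below 0.05. Fold changes carry moderated standard errors. The fit was tested on simulated data, drawn independently for each row and library with the SDs within groups. The simulation held no pools raised in many genes together and left out no library, so it cannot assess the p-values under those conditions. Descriptions used Python 3.11.15, NumPy 2.4.6 and pandas 2.3.3. Gene positions on mm9 (NCBIM37) are those of GENCODE vM1. A planned protein comparison was replaced by shared 75-base transcript windows.

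Members, gene lists and tests were chosen with earlier results of these data known. Named genes were all members, the 10 rows of most similar pattern, the 5 of opposite pattern, and of each list up to 4 called by adjusted p and up to 4 by similarity; genes outside this rule were named after their values were seen. A gene that the rule names is not reported here. Alternatives were a replicate block, other filters, a pseudocount of 8, quantile normalization, median centring, robust moderation, no trend, weights for library quality, omitting each library in turn, and leaving out both raised libraries.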

Additional observations from a re-analysis of the deposited data

Results flagged for a closer look

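For the 10 members and the 10 genes of similar pattern, 23 of 40 sets of 4 libraries had a library whose gap to its nearest neighbour, divided by the range of the group, exceeded Dixon's critical value for 4 samples. Chance would give about 2.0. All these genes were chosen for standing high in the 2 libraries, so the number carries no weight of its own, and the values describe how isolated the library is. Dexamethasone replicate 1 was isolated at the top for Krt16 (0.842), Ivl (0.993), Hmga2 (0.984), Fosl1 (0.883), Sh2d5 (0.988), Scg2 (0.931), Pxdc1 (0.892), Epgn (0.887), Kcnk12 (0.951), Sept11 (0.923) and Pthlh (0.838). Vehicle replicate 3 was isolated at the top for Krt16 (0.836), Sprr1a (0.895), Ivl (0.951), Hmga2 (0.98), Fosl1 (0.952), Sh2d5 (0.984), Scg2 (0.977), Pxdc1 (0.966), Epgn (0.941), Kcnk12 (0.899), Pthlh (0.965) and Akr1b8 (0.946). Neither library reached the share for Krt17 or Krt6a, whose remaining pools were spread over a wider part of the range.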

How the results depend on the processing

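With all 8 libraries 1330 genes were called higher and 888 lower, and 918 to 1302 higher and 493 to 829 lower on leaving out 1 library. The number of members called was 0, 0 to 1 on leaving out 1 library (Pxdc1 without vehicle replicate 3, log2 fold change 0.50, adjusted p = 0.00930, limma) and 3 with both raised libraries left out. With a replicate block 1053 genes were called higher and 622 lower, and no member. Deviations of same-numbered libraries correlated at -0.31, 0.18, -0.14 and 0.14 for numbers 1 to 4. These values show no common pairing, but they cannot settle whether same-numbered pools were handled together. The lists related to the members had 43, 13, 19, 11, 5 and 4 genes tested. They held 20 calls, 13 higher and 7 lower, where 15.1% of all tested rows were called. On leaving out 1 library they held 14 to 25 calls. With both raised libraries left out 19 were higher and 11 lower, where 15.0% of all tested rows were called. Signs of uncalled members changed with the library left out: the log2 fold change ran from -1.05 to 0.27 for Krt16, -0.52 to 0.14 for Krt17, -0.056 to 0.089 for Krt6a, -0.61 to 0.22 for Sprr1a, -0.43 to 0.17 for Hmga2, -0.33 to 0.14 for Fosl1, -0.97 to 0.51 for Sh2d5 and -0.40 to 0.32 for Scg2. The highest value was that without vehicle replicate 3 in each of these genes. Library quality weights turned Krt6a to 0.037, Sh2d5 to 0.097 and Scg2 to 0.093, and leaving out both raised libraries turned Krt6a to 0.038 and Scg2 to 0.015. Ivl kept its sign, from -0.82 to -0.18, and so did Pxdc1, from 0.10 to 0.50. For the 6 libraries, alternatives were chosen after the data were seen, and 3 members were called in every one. There Krt17 ran from -0.20 to 0.039, Krt6a from -0.0080 to 0.069 (-0.0061 with quantile normalization), Sprr1a from -0.15 to 0.067 and Scg2 from -0.0080 to 0.035 on leaving out 1 library, none of them called. The cause of these changes was not tested beyond the libraries left out.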

Other observations

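The treatment difference in the other 6 libraries is given here, as a description, for genes that stood high in the 2 raised ones. Of the 18 rows besides the members in which both libraries led their group by at least 0.5, 13 (72.2%) were called lower and none higher among the other 6 libraries (limma), against 5.97% lower over all tested rows, and their median log2 fold change was -0.27. With all 8 libraries none of the 18 was called, and their median was -0.34. At an excess of at least 0.2, 43 of 154 rows (27.9%) were lower and 17 higher among the 6. Of the 10 genes of most similar pattern 7 were lower among the 6: Epgn by -0.49, Asns by -0.66, Aldh18a1 by -0.64, Sept11 by -0.41, Akr1b8 by -0.29, Fscn1 by -0.26 and Pthlh by -0.26. Mthfd2 (-0.17), Kcnk12 (0.034) and Vegfa (-0.029) were not called there. These rows were picked by the excess over the highest of the other libraries of each group, so values of the 6 libraries entered the choice. An excess counted from the other dexamethasone pools favours rows low in them, and that counted from the other vehicle pools favours rows low in those. How far the choice shaped the counts was not tested, and no treatment effect is concluded from them.

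The opposite pattern was weaker in size but not much rarer. In 1710 of the 14715 tested rows both libraries were the lowest of their group, against 1917 in which both were the highest. In none were both the lowest by 0.5. The 5 rows with the largest gaps were Rab27a, a gene of vesicle transport (0.16), Aldh1a7 (0.15), Acpl2 (0.14), Adh7, an alcohol dehydrogenase gene of the corneal epithelium (0.14), and Cdca7 (0.14). Adh7 stood at 14.34 in dexamethasone replicate 1 and 14.48 to 14.53 in the other dexamethasone libraries, against 14.26 in vehicle replicate 3 and 14.41 to 14.50 in the other vehicle libraries.

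Over the 14705 tested rows besides the members, deviations from the group mean in dexamethasone replicate 1 and vehicle replicate 3 had a Pearson r of 0.59, and the other 15 pairs of a dexamethasone with a vehicle library had -0.40 to 0.37. These correlations run across genes, which are not independent replicates, and the deviations within a group sum to 0.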
